A study of Arabidopsis thaliana with 15 samples.

Results

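The 7 genes described here, MEA (AT1G02580), FIS2 (AT2G35670), PHE1 (AT1G65330), HDG3 (AT2G32370), HDG8 (AT3G03260), HDG9 (AT5G17320) and MPC (AT3G19350), are a set of Arabidopsis genes known for imprinted expression in the endosperm. The list was made from genes whose methylation is known to differ between the parental alleles in endosperm. The rule that names them uses no level of these libraries, although it was written with earlier results of these data known, and each gene was taken as its TAIR10 gene body plus 2 kb on each side, which gave 7 of 27444 protein-coding genes and 174 of the 397152 windows of 300 bp on chromosomes 1 to 5. DNA methylation was read by MethylC-seq, bisulfite sequencing in which an unmethylated cytosine is read as thymine. Wild-type Col-0 material was taken as dry seed (0 h), as seed after stratification alone (48 h S), as germinating seed after a further 6 h (6 h SL) or 24 h (24 h SL) of light, and as seedlings after 48 h of light (48 h SL), and each of the 5 stages had 3 replicates. All seeds had been dried for 14 days in the dark, stratification lasted 48 h at 4 °C in darkness, and the light was continuous at 22 °C. The tissue label changes from seed to seedling along with the time, so tissue and time cannot be told apart, and the calls carry no information on allele or cell type. In such bulk DNA, fewer endosperm cells and a different level per cell cannot be told apart. The share of endosperm was not measured, and a DNA assay holds no expression markers against which the tissue label could be checked.

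The endosperm is the nutritive tissue of the seed, in which imprinted genes are expressed mainly from the maternal or the paternal copy. Before fertilization the DNA glycosylase DEMETER removes cytosine methylation from the maternal genome of the central cell, the cell that gives rise to the endosperm, so that maternal copies in the endosperm lack methylation that the embryo carries on both copies. CG methylation is copied at replication by MET1, CHG methylation is kept by CMT3 and histone H3K9 methylation, and CHH methylation (H is A, C or T) is set anew by RNA-directed DNA methylation and CMT2. MEA, the histone H3K27 methyltransferase of the FIS Polycomb complex, and FIS2, a zinc-finger subunit of the same complex, are maternally expressed. PHE1, a MADS-box transcription factor under control of that complex, is paternally expressed. HDG3 (paternally expressed) and HDG8 and HDG9 (maternally expressed) encode class IV homeodomain-leucine zipper factors, and MPC (maternally expressed) encodes a protein resembling the C-terminal domain of poly(A)-binding proteins. The question was whether CG methylation at these loci was partial in the seed, and whether it was higher in seedlings. A loss of endosperm by the seedling stage was assumed in this question and was not measured.

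Methylated DNA at the 7 loci lay in short blocks, and the sequences shown next are among those on which the results turn, read 5′ to 3′ on the plus strand of TAIR10 with every CG in capitals. The first 5 are the whole 300-bp windows with the largest fall of CHH methylation at MEA (chr1:549601-549900, 3′ of the gene), FIS2 (chr2:14991601-14991900, 5′), PHE1 (chr1:24264901-24265200, 3′), HDG3 (chr2:13740001-13740300, 5′) and HDG9 (chr5:5701801-5702100, 3′).
MEA 3′ window: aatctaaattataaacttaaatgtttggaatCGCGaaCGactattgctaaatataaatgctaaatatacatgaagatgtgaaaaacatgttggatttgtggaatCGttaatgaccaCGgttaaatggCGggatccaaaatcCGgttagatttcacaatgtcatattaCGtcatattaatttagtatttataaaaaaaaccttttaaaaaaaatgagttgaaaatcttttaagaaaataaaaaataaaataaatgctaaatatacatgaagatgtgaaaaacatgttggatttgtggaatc
FIS2 5′ window: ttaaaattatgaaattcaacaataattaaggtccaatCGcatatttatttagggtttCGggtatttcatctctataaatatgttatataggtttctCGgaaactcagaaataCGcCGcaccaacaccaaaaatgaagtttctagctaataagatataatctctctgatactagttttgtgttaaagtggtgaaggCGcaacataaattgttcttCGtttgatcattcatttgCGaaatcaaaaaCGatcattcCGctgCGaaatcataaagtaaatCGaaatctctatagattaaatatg
PHE1 3′ window: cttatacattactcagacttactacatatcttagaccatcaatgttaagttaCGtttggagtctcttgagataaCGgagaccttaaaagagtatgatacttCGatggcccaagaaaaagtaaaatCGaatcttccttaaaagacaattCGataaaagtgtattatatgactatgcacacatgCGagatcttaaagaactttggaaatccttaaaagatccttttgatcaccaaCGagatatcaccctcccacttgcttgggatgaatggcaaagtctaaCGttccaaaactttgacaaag
HDG3 5′ window: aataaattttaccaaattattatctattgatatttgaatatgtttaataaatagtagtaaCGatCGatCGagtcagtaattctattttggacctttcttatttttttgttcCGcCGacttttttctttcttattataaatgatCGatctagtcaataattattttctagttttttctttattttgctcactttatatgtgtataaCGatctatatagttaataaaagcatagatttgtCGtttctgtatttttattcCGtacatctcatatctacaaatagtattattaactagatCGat
HDG9 3′ window: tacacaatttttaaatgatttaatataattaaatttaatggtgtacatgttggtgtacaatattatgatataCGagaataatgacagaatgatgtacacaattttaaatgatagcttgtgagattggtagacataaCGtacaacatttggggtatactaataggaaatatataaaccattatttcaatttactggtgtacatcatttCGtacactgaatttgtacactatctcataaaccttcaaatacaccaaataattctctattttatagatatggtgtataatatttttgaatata
These windows hold 8, 12, 8, 10 and 3 CG, in the order printed, so the HDG9 window has few CG although its CHH level was among the highest of the 7 loci. The last pair lies directly upstream of a start site, in 2 windows whose CG level was higher in seedlings without passing the test. The parts that precede the genes are shown: the 163 bases upstream of HDG9 (chr5:5707638-5707800) with 1 CG, and the 173 bases upstream of MPC (chr3:6705301-6705473) with 4 CG.
HDG9 start: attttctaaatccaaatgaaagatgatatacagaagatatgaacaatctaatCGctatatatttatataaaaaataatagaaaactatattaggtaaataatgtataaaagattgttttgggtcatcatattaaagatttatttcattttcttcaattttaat
MPC start: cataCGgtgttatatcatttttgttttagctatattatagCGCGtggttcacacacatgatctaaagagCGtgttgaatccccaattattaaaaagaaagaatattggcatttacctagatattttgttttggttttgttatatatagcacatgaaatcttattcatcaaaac
With the calls of the 3 libraries summed, the CG site of the HDG9 stretch had a level of 87.4% in 48 h SL seedlings and 71.7% in dry seed. The 4 sites of the MPC stretch had levels of 74.2 to 87.3% (median 82.7%) in 48 h SL seedlings and 52.8 to 76.9% (median 66.4%) in dry seed. These site levels are sums with no replicate error and were not tested. CG in the 2 whole windows did not pass the quasi-binomial test given below (adjusted p = 0.139 at HDG9 and 0.262 at MPC).

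Levels are given per context as the percentage of calls that were methylated, 1 call being 1 read at 1 cytosine, and windows entered the tests when they held at least 3 covered cytosines and 20 calls in every library. This left 120 CG, 128 CHG and 173 CHH windows of the 174, and an absent CG or CHG value means too few such cytosines or calls, not a low level. The libraries held 97238997 to 428839380 calls on chromosomes 1 to 5, with 221011626 to 339251465 in seedlings and 196088777 to 272191204 in dry seed, and the shallowest was replicate 1 of 24 h SL. Calls in windows with CG and CHG levels below 1% gave a background CHH level of 0.339 to 0.749% in 48 h SL seedlings and 0.214 to 0.306% in dry seed, on average 0.560% in 48 h SL seedlings and 0.266% in dry seed. This shift was upward, opposite to the falls in CHH reported below. It had the same direction as the few rises in CHH with an adjusted p below 0.05, all of which were at low levels.

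Most of each locus was unmethylated, and the blocks lay at different places relative to the genes. Of the 120 CG windows, 94 were below 5% in dry seed and 23 were at 20% or more, with 9 of these at HDG9, 5 at PHE1, 3 at MEA, 2 each at FIS2 and HDG8, and 1 each at HDG3 and MPC. MEA (chr1:544733-549202, plus strand) had a narrow CG block upstream, with its window centre at −382 bp from the start site, and a block in all contexts beyond its 3′ end. FIS2 (chr2:14992565-14996756, plus strand) and HDG3 (chr2:13740878-13746286, plus strand) each had their block upstream, centred at −814 and −728 bp from the start site. PHE1 (chr1:24266257-24267336, minus strand) was methylated 3′ of the gene and, in CG, within the neighbouring gene AT1G65340. HDG8 (chr3:755159-759282, minus strand) had an intergenic block upstream and another inside an intron at 2532 bp from its start site. HDG9 (chr5:5703139-5707637, minus strand) was methylated over its start and the adjoining coding sequence and again 3′ of the gene. It also carried CHG methylation farther upstream, in the window at −1214 bp (77.6% in dry seed with libraries summed). MPC (chr3:6705474-6706127, plus strand) was methylated over its start and body.

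**Figure D1:**
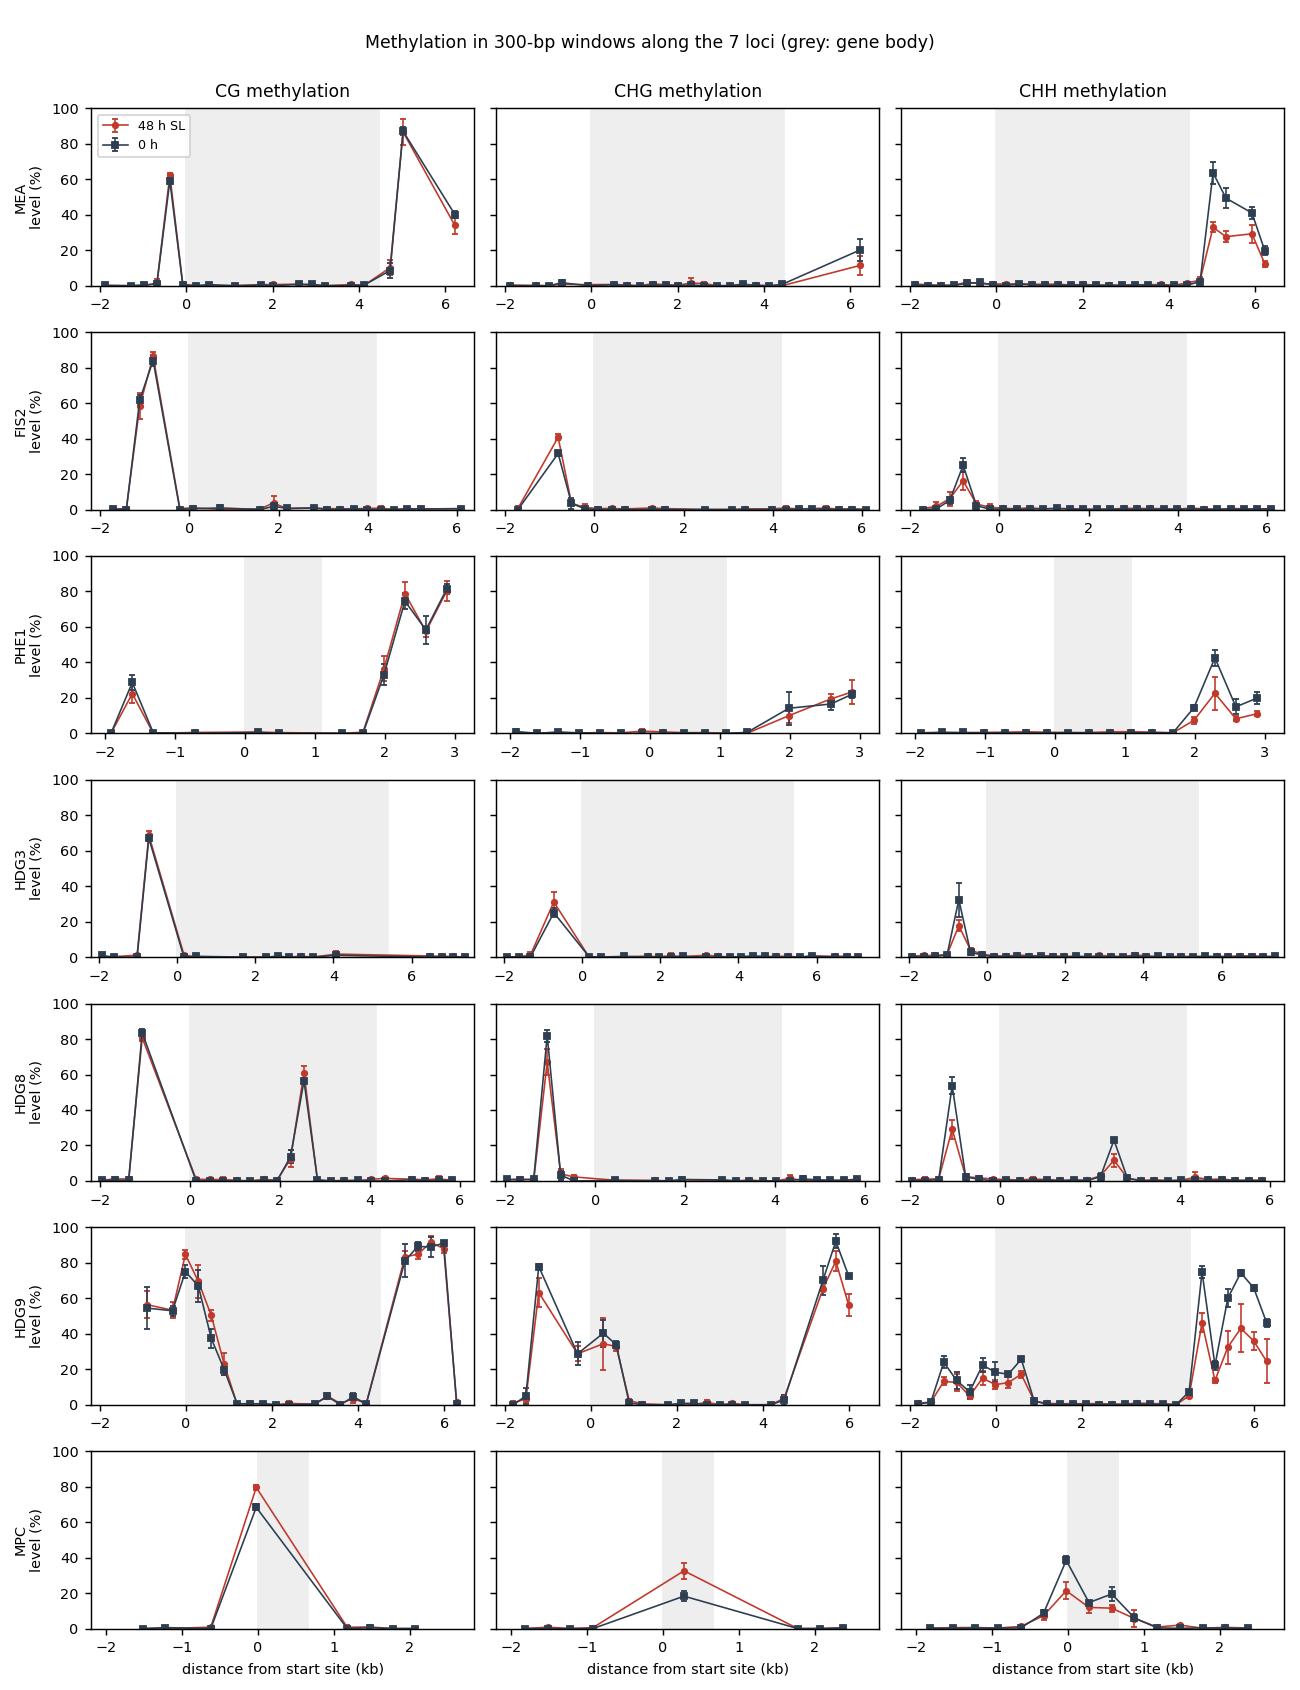
Methylation level (%) in 300-bp windows against the distance of the window centre from the start site (kb, in the direction of transcription), for CG, CHG and CHH in columns and the 7 loci in rows; points are means of 3 libraries at 48 h SL (red) and 0 h (dark), bars are SD, lines join tested windows and grey marks the gene body. The CG profiles of the time points lie close together, whereas the CHH peaks, such as that of HDG9 at 5686 bp, are lower at 48 h SL.

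Local repeats lay in the methylated blocks of MEA, HDG9 and, as 1 short pair, MPC, and outside the blocks or nowhere at the other loci. A comparison of each locus with itself found direct repeats in the 3′ block of MEA, and the MEA 3′ window printed above reaches into them. The longest match was of 1082 bp at 91.5% identity, between chr1:549650-550720 and chr1:549845-550891. These stretches overlap, so the length of the match is not that of a repeat unit. The 3′ block of HDG9 held a direct match of 153 bp at 84.3% identity from chr5:5701945, whose copies overlap in part. It also held an inverted repeat of 104 bp at 79.8%. In FIS2 the repeats lay in the gene body, including a pair of 107 bp at 87.9% identity and others in the coding part. In HDG3 a match of 162 bp at 91.4%, with overlapping copies, lay at the 3′ end of the gene. MPC held 1 pair of 49 bp, with a copy at the start of the gene, and none was found at PHE1 or HDG8 at the threshold used. Repeats within a locus can leave reads without a unique place, and how this moved the levels there was not tested.

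Among methylated CG sites, the share that was partly methylated was higher over the 7 loci together than over the genome, in seed and in seedling, and at MEA it was close to that of the genome. With both strands of a CG joined and the libraries of a time point summed, 178 CG sites with at least 10 calls had a level of 20% or more at 48 h SL, and 89 of them (50%) were between 20 and 80%; at 0 h it was 109 of 178 (61.2%). Over chromosomes 1 to 5 the share was 24.9% in 48 h SL seedlings and 22.7% in dry seed. That share covers all sequence, within genes and outside them, and was not counted over other genes with their flanks. At CG sites with a pooled level of 20% or more, dry seed had 76.9% in the median gene with flanks and 84.5% over the genome. The loci may therefore differ from the genome in part as other genes do, which was not tested. Among all CG sites with enough calls, methylated or not, the share between 20 and 80% was 7.975% at the 7 loci and 7.587% over the chromosomes in 48 h SL seedlings, and in dry seed it was 9.741% at the loci and 6.925% over the chromosomes. On that count MEA, FIS2, HDG3 and HDG8 were below the genome at both time points and PHE1, HDG9 and MPC above it. Counted by 300-bp window the contrast was smaller. Of the methylated CG windows in dry seed, 15 of 23 (65.2%) at the loci and 51.4% of 87309 in the genome were between 20 and 80%. At 48 h SL it was 15 of 24 windows at the loci. No test was made of these differences, since neighbouring sites are not independent and the genes were chosen for being imprinted.

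The share of partial sites differed between the loci. At MPC it was 76.5% (13 of 17) in 48 h SL seedlings and 94.1% (16 of 17) in dry seed, and at PHE1 70.0% (21 of 30) in 48 h SL seedlings and 83.3% (25 of 30) in dry seed. HDG3 had 6 of 10 partial sites (60.0%) in 48 h SL seedlings and 10 of 10 at 0 h, and HDG9 had 27 of 54 (50%) in 48 h SL seedlings and 33 of 53 (62.3%) in dry seed. HDG8 had 9 of 17 (52.9%) at both time points. The Polycomb genes had fewer, with 5 of 18 (27.8%) in 48 h SL seedlings and 8 of 17 (47.1%) in dry seed at FIS2, and 8 of 32 (25%) in 48 h SL seedlings and 8 of 34 (23.5%) in dry seed at MEA. The share was thus lower at 48 h SL in 5 of the 7 loci, equal at HDG8 and higher at MEA, while over the genome it was slightly higher at 48 h SL.

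**Figure D2:**
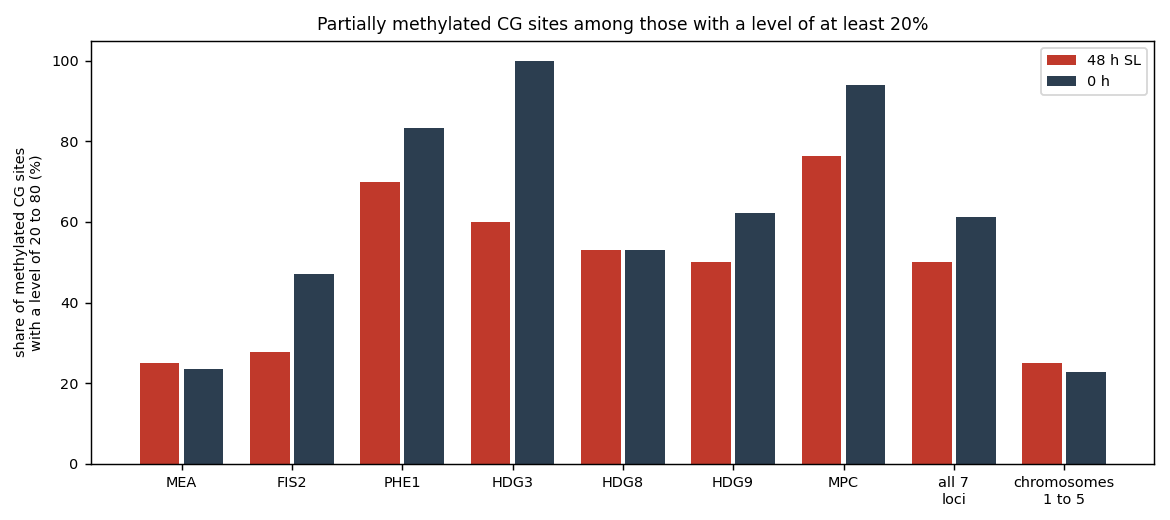
Share (%) of CG sites with a level of 20 to 80% among those with 20% or more, at 48 h SL (red) and 0 h (dark), for each locus, all 7 loci and chromosomes 1 to 5; the bars are counts of sites over summed libraries, with no replicate error. At 0 h all loci other than MEA stand well above the 22.7% of the genome, with HDG3 and MPC highest.

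The partial level did not come with a rise of CG methylation that passed the test in any window. Of the 120 CG windows, 0 were past the threshold at 48 h SL against 0 h in either direction (quasi-binomial test with Benjamini-Hochberg adjustment over 262730 windows, adjusted p below 0.05 and a difference of at least 20 percentage points), and limma also called 0. Among all windows 0.00533% were called higher and 0.00381% lower, so very few calls existed anywhere. At an unadjusted p below 0.05, 5 member windows were higher (2.97% of all windows) and 1 was lower (5.55% of all windows). No CG window of the loci was called at any intermediate stage, or over the whole time course. Against dry seed, an unadjusted p below 0.05 was reached by 1 higher and 1 lower window after stratification (1.43% of all windows in each direction), by 3 higher (1.69%) and 1 lower (1.01%) after 6 h of light, and by 0 higher (1.27%) and 2 lower (2.16%) after 24 h of light.

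The direction in the methylated windows is given as a description. Of the 23 windows with a CG level of 20% or more at 0 h, 15 were higher and 8 lower at 48 h SL, with a median difference of 2.37 points, whereas of 87309 such windows in the genome 36.7% were higher and the median was −1.72 points. Among windows of 20 to 80% in dry seed, 11 of 15 were higher at the loci with a median of 3.62 points, and 54.0% of 44839 were higher in the genome with a median of 0.541 points. In 4 of the 23 windows every 48 h SL library was above every 0 h library, and in 1 every one was below. The share of windows separated in this way was not counted over the genome, so these 2 counts cannot be read as a change. The count of higher windows was no steady climb with time, since 13 windows were higher after stratification, 17 after 6 h of light and 12 after 24 h of light.

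MEA, the H3K27 methyltransferase, had its partial CG block upstream of the gene, at chr1:544201-544500. Its CG level was 59.4, 57.5 and 60.7% in dry seed, 60.6, 62.3 and 63.8% in 48 h S seed, 57.7, 45.6 and 59.4% in 6 h SL seed, 72.5, 48.9 and 66.4% in 24 h SL seed and 63.7, 62.3 and 60.8% in 48 h SL seedlings. The seedling libraries were all just above those of dry seed, by less than the libraries of 6 h SL and 24 h SL differed among themselves (difference of summed levels 3.39 points, quasi-binomial adjusted p = 0.7). The block was CG only, as its CHH level was 1.99, 1.27 and 0.198% in 48 h SL seedlings and 3.02, 0.851 and 1.57% in dry seed. The 3′ window at 5018 bp was almost fully methylated in CG, at 93.4, 87.9 and 78.8% in 48 h SL seedlings and 88.5, 88.5 and 84.4% in dry seed, and its small difference changed sign without replicate 1 of 48 h SL (−2.71 points). At 6218 bp the level was 39.3, 31.8 and 30.7% in 48 h SL seedlings and 39.7, 38.1 and 42.6% in dry seed, a difference of −4.85 points (adjusted p = 0.681). A window at 3818 bp in the gene had an unadjusted p below 0.05 on 0.784% in 48 h SL seedlings and 0% in dry seed, which is at the level of the background.

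FIS2, the zinc-finger subunit, was highly methylated upstream at chr2:14991601-14991900. The CG level there was 89.1, 85.6 and 84.6% in 48 h SL seedlings and 86.9, 80.7 and 84.4% in dry seed, with overlapping libraries and a difference of 3.08 points (quasi-binomial adjusted p = 0.681). The next window upstream, at −1114 bp, was partial, with 63.5, 61.3 and 50% in 48 h SL seedlings and 59.2, 64.8 and 61.5% in dry seed. Its difference of −1.46 points turned to 1.28 points without replicate 3 of 48 h SL.

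PHE1, the MADS-box gene, has its methylated block 3′ of the gene, and CG there was partial to high. At chr1:24264901-24265200 the level was 71.9, 84.3 and 80.2% in 48 h SL seedlings and 69.6, 75.8 and 78.2% in dry seed (4.21 points, adjusted p = 0.681). The largest difference upward was at 1986 bp from the start site, with 38.9, 41.8 and 28.4% in 48 h SL seedlings and 33.8, 38.5 and 26.7% in dry seed (5.15 points, adjusted p = 0.681). In both windows the libraries of the time points overlapped. The window farthest from the gene, at 2886 bp, had the highest CG level of the locus at 0 h, with 86.1, 80 and 75.0% in 48 h SL seedlings and 83.0, 78.4 and 83.3% in dry seed. The largest difference downward was upstream of PHE1, within the coding part of AT1G65340, at 25.2, 25.4 and 16.4% in 48 h SL seedlings and 25.3, 33.3 and 27.3% in dry seed (−5.89 points, adjusted p = 0.673).

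Among the homeodomain genes, HDG3 and HDG8 had CG blocks in which no window passed the test. The block upstream of HDG3 (chr2:13740001-13740300) had a CG level of 68.7, 66.7 and 65.8% in dry seed, 70.2, 67.0 and 68.2% in 48 h S seed, 61.1, 52.7 and 66.5% in 6 h SL seed, 59.8, 66.7 and 73.9% in 24 h SL seed and 71.4, 67.2 and 67.7% in 48 h SL seedlings (difference between the ends 2.18 points, adjusted p = 0.845). A window in HDG3 at 172 bp had an unadjusted p below 0.05 on 1.44% in 48 h SL seedlings and 0% in dry seed. The intron block of HDG8 (chr3:756601-756900) had 60.4, 57.3 and 65.4% in 48 h SL seedlings and 55.6, 57.8 and 55.9% in dry seed (4.45 points, adjusted p = 0.681). The upstream block of HDG8 had 82.6, 79.8 and 79.8% in 48 h SL seedlings and 82.2, 85.7 and 82.8% in dry seed (−2.05 points, adjusted p = 0.819). Libraries of the time points overlapped in the HDG3 window and in both HDG8 windows.

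HDG9 and MPC had the windows in which CG was highest relative to dry seed. At chr5:5706901-5707200, in coding and intron sequence near the start of HDG9, the CG level was 41.1, 31.2 and 40% in dry seed, 44.0, 44.1 and 44.0% in 48 h S seed, 53.3, 46.5 and 46.4% in 6 h SL seed, 54.7, 37.3 and 27.5% in 24 h SL seed and 53.7, 48.3 and 49.2% in 48 h SL seedlings. Every seedling library was above every dry seed library, by 13.1 points in the summed levels, but the 24 h SL libraries spanned both (unadjusted p = 0.00439, quasi-binomial adjusted p = 0.229, 0.0729 to 0.687 over the alternatives). Over the start site of HDG9 (chr5:5707501-5707800) the level was 83.8, 83.0 and 87.5% in 48 h SL seedlings and 73.2, 79.2 and 72.8% in dry seed. The groups were again separated, by 10.3 points, and the intermediate time points lay at 73.6 to 84.1%. The unadjusted p was 0.0014 and the adjusted p 0.139, with a range of 0.0456 to 0.511 over the alternatives, the lowest being with another prior for the dispersion. In the 3′ block of HDG9 a window at 5386 bp went the other way, with 83.3, 87.4 and 83.6% in 48 h SL seedlings and 87.9, 92.1 and 87.9% in dry seed (−4.97 points, unadjusted p = 0.0221, adjusted p = 0.456). The HDG9 window with the highest CG level at 0 h, at 5986 bp, had 89.6, 85.5 and 88.8% in 48 h SL seedlings and 92.3, 89.6 and 91.5% in dry seed (adjusted p = 0.673).

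MPC had 1 methylated CG window that could be tested, over its start site (chr3:6705301-6705600). The CG level was 70.3, 67.1 and 67.7% in dry seed, 73.9, 61.6 and 70.0% in 48 h S seed, 63.9, 73.3 and 67.0% in 6 h SL seed, 84.8, 73.5 and 65.9% in 24 h SL seed and 79.1, 81.2 and 78.4% in 48 h SL seedlings. The seedling libraries were all above those of dry seed, by 11.1 points in the summed levels, and above all libraries of the other time points other than replicate 1 of 24 h SL, the shallowest library. The difference did not pass the threshold (unadjusted p = 0.00585, quasi-binomial adjusted p = 0.262, 0.0849 to 0.554 over the alternatives). The window held 46 to 226 calls per library, and the 2 HDG9 windows 51 to 209 and 68 to 228, so a level at the lower end of these depths rests on few reads. Summed over the whole body of MPC, CG was level, at 60.2% ± 5.29 in 48 h SL seedlings and 59.4% ± 5.21 in dry seed (SD, n = 3 each). The difference there was 0.318 points (quasi-binomial unadjusted p = 0.951). Over the 5′ flank CG was 17.7% ± 0.990 in 48 h SL seedlings and 10.6% ± 1.33 in dry seed (quasi-binomial adjusted p = 0.234).

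**Figure D3:**
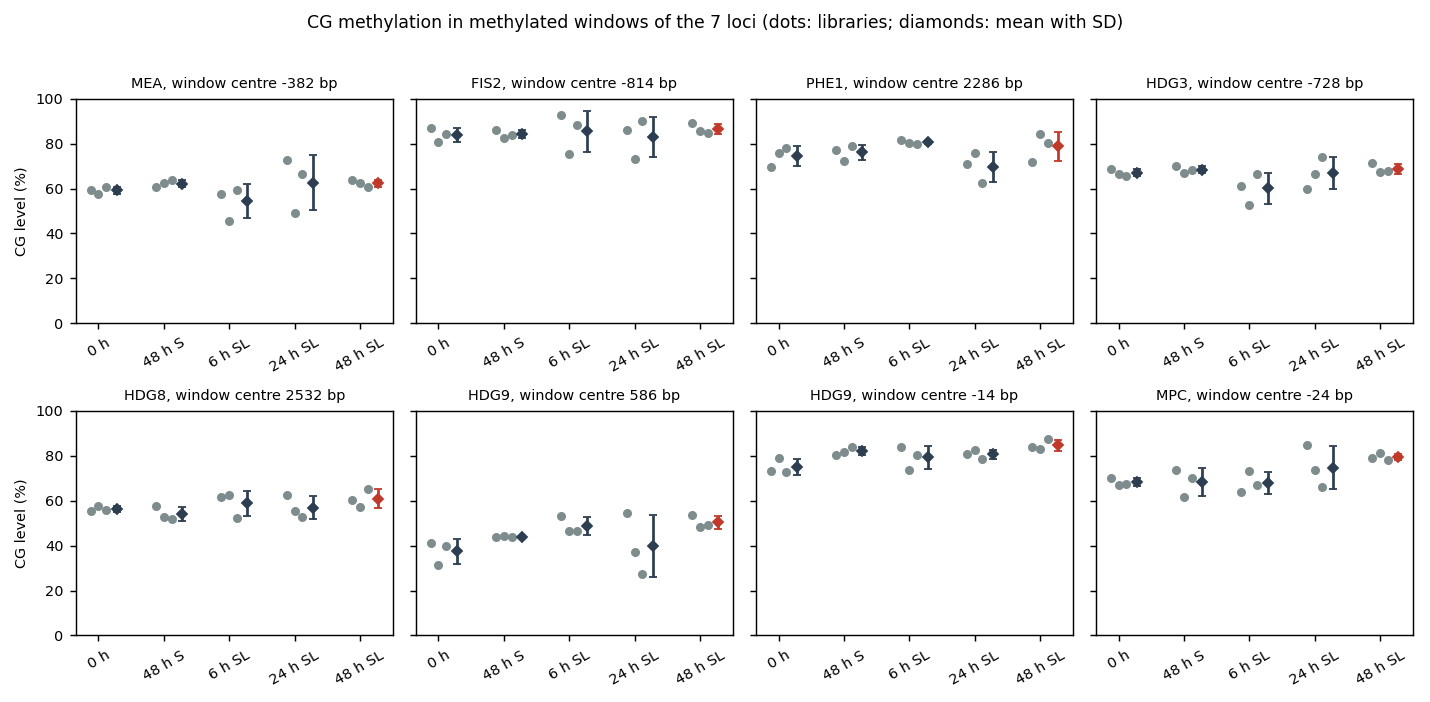
CG level (%) at each time point in 8 methylated windows of the 7 loci; dots are libraries, diamonds with bars the mean and SD of 3 libraries (48 h SL in red), and each title gives the gene and the distance of the window centre from the start site. In the FIS2, PHE1, HDG3 and HDG8 windows the 48 h SL and 0 h libraries overlap, and in the MEA window those of 48 h SL lie just above. At 48 h SL the windows of HDG9 at 586 and −14 bp and of MPC at −24 bp lie above 0 h by 10.3 to 13.1 points without passing the threshold.

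With only CG sites of a pooled level of 20% or more, which leaves out the unmethylated sequence that dilutes a locus, 0 of 7 loci changed (adjusted p below 0.05 over 21185 genes, of which 1.93% were higher and 2.26% lower). For 48 h SL against 0 h the unadjusted p was below 0.05 at FIS2 alone, in the upward direction (9.58% of all genes). For 6 h SL against 0 h it was below 0.05 at HDG9 and PHE1, also upward (3.35% of all genes). This selection of sites was added after the data had been seen. At FIS2 (16 sites) the level averaged 85.1% ± 1.94 in 48 h SL seedlings and 80.1% ± 3.79 in dry seed (SD, n = 3 each), with separated libraries (quasi-binomial adjusted p = 0.263). MPC (17 sites) had 59.7% ± 3.49 in 48 h SL seedlings and 55.6% ± 2.00 in dry seed (adjusted p = 0.571), and HDG9 (55 sites) 74.7% ± 2.22 in 48 h SL seedlings and 72.9% ± 0.438 in dry seed (adjusted p = 0.387). At PHE1, HDG3 and HDG8 the 48 h SL and 0 h means differed by less than 2 points, and MEA (37 sites) was lower at 48 h SL, at 80.2% ± 4.50 against 83.8% ± 1.06 in dry seed (adjusted p = 0.549). With a library left out the difference in summed levels ranged from −4.38 to −0.771 points at MEA, with the smallest size without replicate 3 of 48 h SL. At FIS2 it ranged from 3.41 points (without replicate 2 of 0 h) to 7.16 points. At HDG9 it ranged from 0.508 points (without replicate 1 of 48 h SL) to 3.14 points, and at MPC from 1.88 points (without replicate 2 of 48 h SL) to 5.27 points. It changed sign at HDG3 (−0.295 to 2.78 points) and HDG8 (−3.20 to 0.437 points), and ranged from 0.501 to 2.54 points at PHE1. At 6 h SL, HDG9 averaged 77.1% ± 2.90 against 72.9% ± 0.438 in dry seed, and PHE1 69.4% ± 6.06 against 62.8% ± 1.79 in dry seed (adjusted p = 0.919 each). The median difference between 48 h SL and 0 h was 1.66 points over the 7 loci and 0.320 points over all genes. At such sites the genome had 82.8% in 48 h SL seedlings and 84.5% in dry seed.

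Tested windows with CHG methylation at 20% or more at 0 h lay at FIS2, PHE1, HDG3, HDG8 and HDG9, and these windows also carried CG or CHH methylation. Most windows of the 3′ block of MEA had too few CHG cytosines or calls to enter the test. Of the 128 CHG windows, 0 were past the threshold (quasi-binomial test over 298621 windows, of which 0.00067% were called higher and 0.0948% lower), and limma called 0 as well. At an unadjusted p below 0.05, 1 was higher (1.92% of all windows) and 4 were lower (3.22% of all windows). Of 11 member windows with 20% or more at 0 h, 8 were lower at 48 h SL with a median of −2.83 points, and of 47839 in the genome 74.1% were lower with a median of −3.50 points.

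Over the whole 3′ flank of MEA, the CHG level was 29.2, 19.7 and 17.9% in 48 h SL seedlings and 39.3, 34.1 and 38.4% in dry seed, with every seedling library below every dry seed library. The difference of −13.2 points had an unadjusted p of 0.000767 and did not pass the test (quasi-binomial adjusted p = 0.192). Of 27227 genes, 0.0918% were called lower and 0.00367% higher there. The adjusted p ranged from 0.00432 to 0.696 over 17 alternatives and was below 0.05 in 2 of them, with limma (0.0384) and without replicate 1 of 48 h SL (−18.7 points). Among the tested windows, those with the smallest p in CHG were at HDG8, HDG9 and MPC. In the upstream block of HDG8 the level was 69.4, 73.1 and 58.6% in 48 h SL seedlings and 78.1, 83.6 and 83.8% in dry seed. All seedling libraries were lower, by 14.3 points in the summed levels, with an adjusted p of 0.0881. Over 19 alternatives it ranged from 0.0103 to 0.595 and was below 0.05 in 1, with another prior for the dispersion. In the 3′ block of HDG9 the window at 5986 bp had 62.8, 50.9 and 54.6% in 48 h SL seedlings and 72.1, 72.5 and 72.9% in dry seed (quasi-binomial adjusted p = 0.707), and the window at 5686 bp in this block and that at −1214 bp, upstream of the gene, were separated in the same direction. A window in the MPC body (chr3:6705601-6705900) went upward, with 27.8, 37.0 and 32.8% in 48 h SL seedlings and 15.1, 19.7 and 20% in dry seed (14.1 points, unadjusted p = 0.00292, adjusted p = 0.378). Over the whole MPC body the difference was smaller, at 5.87 points in the summed levels (quasi-binomial adjusted p = 0.72). There CHG averaged 29.5% ± 3.52 in 48 h SL seedlings and 23.2% ± 1.68 in dry seed (SD, n = 3 each), with separated libraries. The FIS2 block was also separated upward, with 42.5, 40.2 and 39.4% in 48 h SL seedlings and 32.9, 30.2 and 31.7% in dry seed (unadjusted p = 0.0564, adjusted p = 0.707).

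CHH methylation fell. Of the 173 CHH windows, 8 were past the threshold and lower at 48 h SL (4 at HDG9, 2 at MEA, 1 at PHE1 and 1 at HDG8), where 1.95% of 384795 windows in the genome were called lower. None was called higher, and 0% of all windows were (0 calls in the genome at this threshold, with 9 member windows, and 4.79% of all windows, higher at an unadjusted p below 0.05). With the adjusted p alone, 21 windows were lower (9.24% of all windows): 9 at HDG9, 4 at PHE1, 2 each at MEA, HDG8 and MPC, and 1 each at FIS2 and HDG3. Only 1 was higher (0.291% of all windows), at 1476 bp from the MPC start, with 1.63, 2.38 and 1.81% in 48 h SL seedlings and 0.309, 0 and 0% in dry seed. The background CHH level of the same seedling libraries was 0.591, 0.749 and 0.339%. The test over the whole time course also called 8 (1.95% of all windows).

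All methylated CHH windows were lower in seedlings. Of 20 member windows with 20% or more at 0 h, 20 were lower at 48 h SL, with a median of −16.1 points and a range of −32.0 to −7.77 points, and in 19 every seedling library was below every dry seed library. The loci shared this direction with the genome, where 99.5% of 50537 such windows were lower with a median of −10.1 points. How many of those genome windows had separated libraries was not counted. In the median of the 20 windows the drop came late, though not equally so in each of them. After stratification, and again after 6 h of light, 12 of the 20 were higher than in dry seed and 8 lower. After 24 h of light 18 were lower with a median of −3.57 points, and 0 windows of the loci were past the threshold (quasi-binomial test, 0.0013% of all windows called lower, 8 member windows and 3.31% of all windows lower at an unadjusted p below 0.05).

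**Figure D4:**
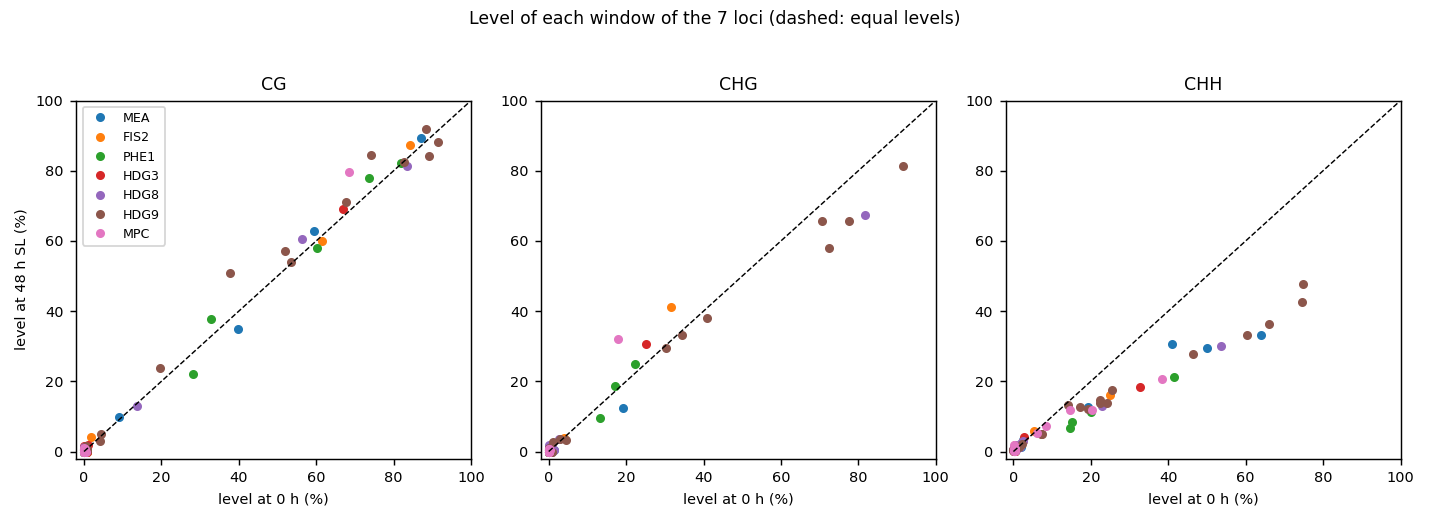
Level at 48 h SL (%) against level at 0 h (%) for each tested window of the 7 loci, in CG, CHG and CHH, with libraries summed and colours for the loci; the dashed line marks equal levels. CG points lie along the line, whereas the 20 CHH windows at 20% or more at 0 h all lie below it.

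At MEA the fall was in the repeats beyond the 3′ end. The window at 5018 bp, printed above, had a CHH level of 64.1, 57.4 and 69.4% in dry seed, 59.4, 59.0 and 56.6% in 48 h S seed, 60.4, 60.5 and 60.3% in 6 h SL seed, 43.9, 53.4 and 53.9% in 24 h SL seed and 32.8, 35.7 and 30.2% in 48 h SL seedlings. The seedling libraries were below those of every other time point, and the summed levels fell by 30.9 points (quasi-binomial adjusted p = 5.35e-08). CG in the same window did not pass the test, as given above. The next window, at 5318 bp (chr1:549901-550200), was already lower in every library at 24 h SL than at 0 h, at 41.4, 33.3 and 37.4%. It had 31.4, 25.6 and 26.0% in 48 h SL seedlings and 53.9, 43.1 and 51.1% in dry seed (−20.5 points, quasi-binomial adjusted p = 0.000617). Leaving out replicate 1 or 3 of 0 h, or 2 or 3 of 48 h SL, took this difference below 20 points (−18.5 to −19.9 points) and kept its adjusted p below 0.05.

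At FIS2 the upstream window had a CHH level of 14.8, 21.8 and 12.1% in 48 h SL seedlings and 25, 21.0 and 29.0% in dry seed. It passed the adjusted p alone (−8.88 points, quasi-binomial adjusted p = 0.0381) and its libraries overlapped. PHE1 fell more, at chr1:24264901-24265200, with 38.1, 47.3 and 42.4% in dry seed, 35.6, 38.5 and 47.3% in 48 h S seed, 36.1, 44.3 and 38.0% in 6 h SL seed, 38.2, 40.4 and 41.4% in 24 h SL seed and 15.5, 19.1 and 33.0% in 48 h SL seedlings. The 24 h SL libraries were level with those of dry seed, and the seedling libraries were lower and scattered (−20.2 points, adjusted p = 0.000302). Without replicate 1 of 48 h SL the difference was −15.8 points, and without replicate 2 of 48 h SL or replicate 2 or 3 of 0 h it was −18.6 to −19.8 points, each with an adjusted p below 0.05.

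HDG3 and HDG8 both lost CHH methylation in their blocks. The upstream window of HDG3 had 21.4, 15.7 and 16.1% in 48 h SL seedlings and 40.1, 35.5 and 21.7% in dry seed, where replicate 3 of 0 h was close to the seedlings (−14.3 points, quasi-binomial adjusted p = 0.00404). The upstream block of HDG8 had 32.7, 31.8 and 22.8% in 48 h SL seedlings, 42.0, 48.4 and 41.9% in 24 h SL seed and 49.1, 58.5 and 53.5% in dry seed. Between seedlings and dry seed it was past the threshold (−23.6 points, adjusted p = 9.73e-06). The HDG8 intron block had 15.5, 11.6 and 7.96% in 48 h SL seedlings and 22.2, 23.8 and 22.9% in dry seed (−10.0 points, adjusted p = 0.00376).

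Over body and flanks HDG9 had the highest CHH level of the 7 loci and the largest difference in points. Its 3′ window printed above (5686 bp) had 76.2, 73.9 and 73.1% in dry seed, 70.2, 76.6 and 72.6% in 48 h S seed, 80, 76.1 and 80.8% in 6 h SL seed, 66.0, 60.7 and 66.3% in 24 h SL seed and 46.1, 28.3 and 54.8% in 48 h SL seedlings (−32.0 points, quasi-binomial adjusted p = 1.8e-06). All 24 h SL libraries lay between the groups, and replicate 2 of 48 h SL was far below the other two. At 5986 bp the level was 66.8, 67.0 and 63.9% in dry seed, 67.4, 72.3 and 66.3% in 48 h S seed, 72.2, 76.1 and 71.8% in 6 h SL seed, 51.9, 55.8 and 49.6% in 24 h SL seed and 37.0, 30.7 and 40.2% in 48 h SL seedlings (−29.8 points, adjusted p = 1.19e-08). At 24 h SL this window was already lower in every library than at 0 h, with an adjusted p of 0.17. The windows at 5386 bp (33.9, 22.6 and 40.9% in 48 h SL seedlings, 65.3, 59.9 and 55.4% in dry seed, adjusted p = 2.17e-06) and at 4786 bp (51.9, 45.3 and 41.4% in 48 h SL seedlings, 74.6, 71.5 and 78.3% in dry seed, adjusted p = 2.63e-07) completed the block. Around the start of HDG9 CHH was lower too. In the window at −14 bp, where CG did not pass its test (adjusted p = 0.139), the CHH level was 13.6, 11.6 and 8.78% in 48 h SL seedlings and 24.4, 13.6 and 16.9% in dry seed (adjusted p = 0.0396).

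At MPC the fall in CHH lay over the start. The CHH level in that window was 38.5, 40.8 and 36.1% in dry seed, 45.0, 34.0 and 38.0% in 48 h S seed, 33.1, 40 and 38.3% in 6 h SL seed, 29.2, 32.0 and 27.8% in 24 h SL seed and 15.9, 23.9 and 24.1% in 48 h SL seedlings. The seedling libraries were below all others, by 17.8 points against dry seed (quasi-binomial adjusted p = 0.000102). CG in this window did not pass its test (adjusted p = 0.262), and whether CG and CHH differed in their change was not tested.

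**Figure D5:**
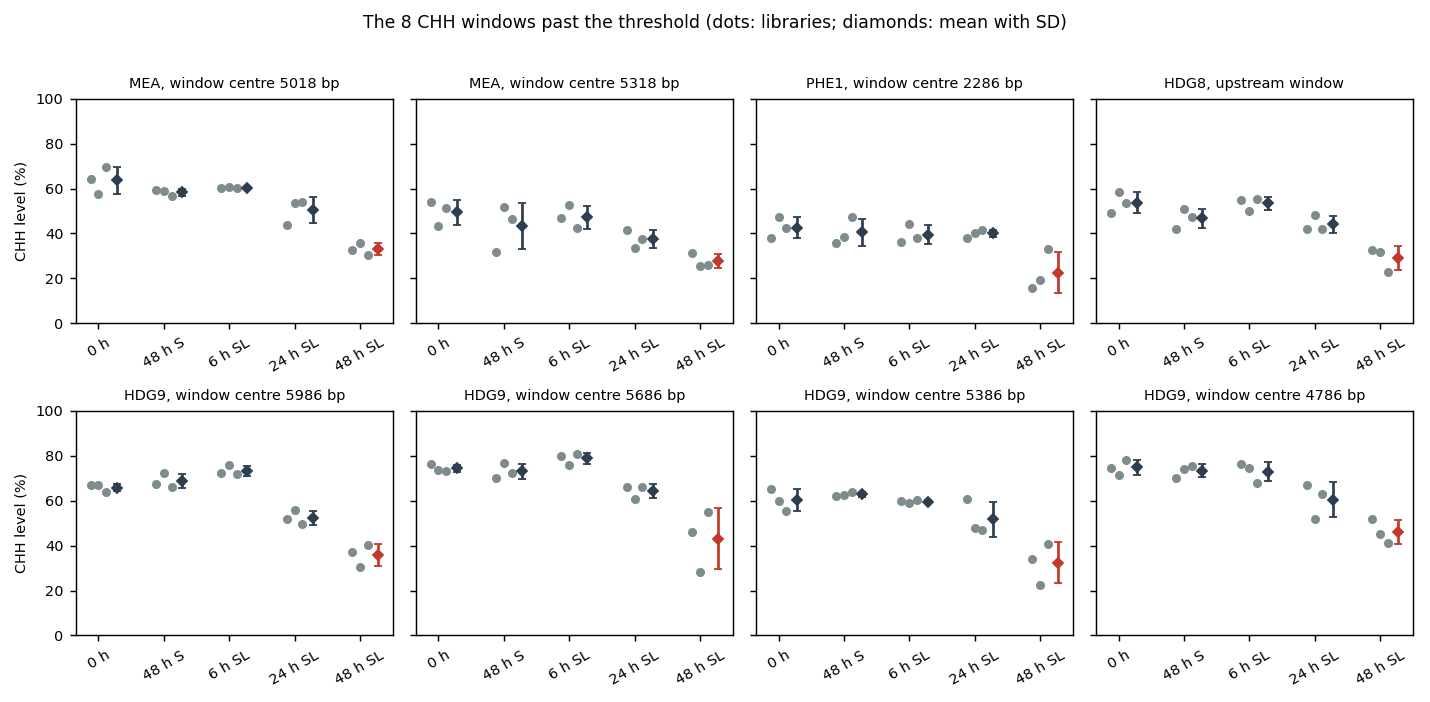
CHH level (%) at each time point in the 8 windows past the threshold; dots are libraries, diamonds with bars the mean and SD of 3 libraries (48 h SL in red), and each title gives the gene and, other than for the upstream window of HDG8, the distance of the window centre from the start site. In all 8 the 48 h SL libraries lie below the 0 h libraries, with most of the drop after 24 h SL at PHE1 and part of it by 24 h SL in the MEA, HDG8 and HDG9 windows.

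Over gene body and flanks together, 0 of 7 loci changed in CG (0.0183% of 27307 genes called higher, 0.531% lower) and 0 of 7 in CHG (0% of 27311 genes in either direction), with limma calling 0 in both contexts. An unadjusted p below 0.05 was found for CG at MPC alone (17.7% ± 2.53 in 48 h SL seedlings and 14.3% ± 1.45 in dry seed, SD, n = 3 each, quasi-binomial adjusted p = 0.622), and for CHG at FIS2, higher, and MEA, lower (adjusted p = 0.726 each). Of all genes 5.23% were higher and 2.79% lower in CG at this unadjusted p, and 3.81% higher and 1.91% lower in CHG. The spread of the seedlings was wide in some such sums, and its cause was not tested: CG over MEA was 23.9, 15.5 and 12.6% in 48 h SL seedlings and 18.8, 19.8 and 21.8% in dry seed. Without replicate 1 of 48 h SL, MEA passed the test in CG (−5.93 points, adjusted p = 0.0135) and in CHG (−3.08 points, adjusted p = 0.0158). With each window counting equally the MEA difference was −0.0782 points for CG and −0.247 for CHG.

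In CHH, 3 of 7 loci fell and 0 rose over body and flanks, where 19.4% of 27331 genes were lower and 5.59% higher. HDG9 averaged 11.6% ± 1.71 in 48 h SL seedlings and 19.2% ± 1.25 in dry seed (−7.37 points in the summed levels, adjusted p = 1.33e-05), a level at 0 h above that of 97.4% of genes. PHE1 averaged 4.09% ± 0.522 in 48 h SL seedlings and 6.75% ± 0.775 in dry seed (−2.76 points, adjusted p = 0.00215), a fall that lay in the outer part of the flank, since with flanks of 1 kb the difference was 0.00515 points. MEA averaged 4.30% ± 1.33 in 48 h SL seedlings and 7.42% ± 0.959 in dry seed (−2.80 points, adjusted p = 0.00893), and lost its call without replicate 3 of 0 h (−2.28 points, adjusted p = 0.0595). Over body and flanks the adjusted p was 0.0912 at MPC, 0.129 at HDG8, 0.648 at HDG3 and 0.697 at FIS2. The median CG difference was 2.27 points over the 7 loci and 0.170 points over all genes. In CHG both medians were 0.136 points, and in CHH the loci had −1.55 points and all genes 0.189 points. In order of mean CG level at 0 h the loci ran from HDG9 (33.1%) through PHE1 (21.8%), MEA (20.1%), MPC (14.3%), FIS2 (10.5%) and HDG8 (8.95%) to HDG3 (6.62%), and among neighbours in this order PHE1 and MEA alone had overlapping libraries.

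Split into parts, the fall in CHH lay in the 3′ flanks of 3 loci and in single parts of others. The 3′ flank fell at HDG9 (30.8% ± 4.11 in 48 h SL seedlings and 54.8% ± 1.93 in dry seed, quasi-binomial adjusted p = 6.47e-09). It also fell at MEA (17.2% ± 3.03 in 48 h SL seedlings and 31.2% ± 3.02 in dry seed, adjusted p = 2.39e-05) and PHE1 (8.36% ± 1.71 in 48 h SL seedlings and 15.1% ± 2.18 in dry seed, adjusted p = 6.65e-05). Of 27289 genes, 13.5% were lower and 1.68% higher there. The 5′ flank fell at HDG9 alone (8.38% ± 0.990 in 48 h SL seedlings and 11.8% ± 1.34 in dry seed, adjusted p = 0.00927). This call was lost without replicate 1 of 0 h (adjusted p = 0.143), and 18.3% of 27274 genes were lower and 3.38% higher there. The gene body fell at MPC (13.3% ± 2.16 in 48 h SL seedlings and 20.4% ± 2.25 in dry seed, adjusted p = 0.0292, 3.28% of 27197 genes lower). It was not called without replicate 1 or 3 of 0 h or replicate 1 of 48 h SL (adjusted p of 0.207, 0.084 and 0.0841). The body of MEA rose, at 0.708% ± 0.292 in 48 h SL seedlings and 0.282% ± 0.0456 in dry seed (adjusted p = 0.0436, 2.18% of 27197 genes higher). The mean background CHH level was 0.560% in 48 h SL seedlings and 0.266% in dry seed. The adjusted p of the MEA body stayed below 0.05 in 3 of 17 alternatives.

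The deposited lists of differentially methylated regions, called by the authors over the time course on these same samples, place 30 of their 47984 regions (0.0625%) over the 7 loci (6 CG, 4 CHG and 20 CHH), with 10 at HDG9, 5 each at PHE1 and MPC, 4 at MEA, 3 at HDG8, 2 at HDG3 and 1 at FIS2. The lists were taken as deposited, and hold many more regions than the study kept after its own filter on the size of the difference. For scale, the 7 loci hold 174 of the 397152 windows of 300 bp. At the 7 loci the means of 48 h SL and 0 h differed by 20 points or more in 0 of the 6 CG regions, where the largest difference was 12.4 points, in 0 of the 4 CHG regions and in 11 of the 20 CHH regions. Neither these counts nor those of separated regions below were made over all deposited regions, so they do not set the loci apart. The levels of the regions are a description, since the regions were chosen on these libraries. The CG regions lay at PHE1 (2), HDG3, HDG8, HDG9 and MPC, with none at MEA or FIS2. The CG region of HDG9 (chr5:5706929-5707145) averaged 47.4% ± 2.79 in 48 h SL seedlings and 35.0% ± 7.50 in dry seed, that of the HDG8 intron (chr3:756692-756851) 59.5% ± 2.64 in 48 h SL seedlings and 51.1% ± 2.23 in dry seed, and that of MPC (chr3:6705222-6706391) 57.2% ± 3.31 in 48 h SL seedlings and 51.5% ± 1.69 in dry seed, each with separated libraries (SD, n = 3 each). The CG region within AT1G65340, upstream of PHE1, ran the other way, at 38.3% ± 2.80 in 48 h SL seedlings and 44.4% ± 3.48 in dry seed. Of the 20 CHH regions, 18 had every seedling library below every dry seed library. The widest such difference was in the upstream region of HDG8, at 46.7% ± 9.67 in 48 h SL seedlings and 83.1% ± 3.94 in dry seed. The exceptions, with overlapping libraries, were a region at HDG9 (chr5:5707260-5707295) and a region at MPC (chr3:6705517-6705540). The HDG9 region was higher in seedlings, at 16.4% ± 3.99 against 13.2% ± 5.21 in dry seed, and the MPC region lower, at 27.4% ± 16.3 against 43.4% ± 7.08.

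Relatives and partners of the 7 genes gave no CG or CHG call either. Over body and flanks 0 of 12 other class IV homeodomain genes, 0 of 6 other Polycomb genes and 0 of 10 other imprinted genes changed in CG or CHG (quasi-binomial test), with median CG differences of 0.137, −0.058 and 1.14 points. At an unadjusted p below 0.05 there were 0, 1 and 2 such genes in CG (1 higher and 2 lower in all) and 2, 0 and 1 in CHG (all higher), where the shares of all genes at this p are those given above. In CHH the homeodomain genes HDG4, HDG10 and ANL2 were lower and HDG2, HDG7 and ATML1 higher, the last 3 at levels below 1% and in the direction of the background shift, where 19.4% of all genes were lower and 5.59% higher. Of the other imprinted genes 3 were lower in CHH, namely SDC (7.21% in 48 h SL seedlings and 11.8% in dry seed), YUC10 (10.3% in 48 h SL seedlings and 17.1% in dry seed) and AGL36 (16.0% in 48 h SL seedlings and 27.6% in dry seed), with 0 higher, and of the Polycomb genes 0 changed.

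As a description of likeness, the 15 mean levels of each locus (3 contexts at 5 time points, over body and flanks) were compared with those of 27300 genes. The nearest genes were AO4 for MEA (a distance of 3.83 points), AT1G76170 for FIS2 (1.86), TBL18 for PHE1 (3.22), CYP77A5P for HDG3 (1.01), AT2G46810 for HDG8 (1.83), IBR1 for HDG9 (6.67) and CIB22 for MPC (3.22). The second nearest were AT1G03010, AT5G53635, AT2G14095, AT1G62790, ACA1, AT5G20460 and AT3G44050, at 1.11 to 7.66 points. Each locus therefore had genes of much the same levels outside the set, and HDG9, the most methylated, had the most distant ones.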

How the data were processed

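The authors trimmed reads with Trim Galore 0.4.2, aligned them to TAIR10 with Bismark 0.16.3 and removed duplicates, and deposited counts of methylated and unmethylated calls per cytosine and library, unnormalized and with replicates kept apart. Their deposited region lists, from the time-series mode of HOME, hold other values, namely coordinates with no level or test. Each library had been made from 600 ng of DNA with 0.5% lambda DNA, which was not used here, so conversion was not measured. All 42859750 positions matched a cytosine of the reference, whose RefSeq annotation and sequence (TAIR10.1 nuclear chromosomes) were therefore used. Calls were summed in 300-bp windows with their centre in a gene or its 2 kb flanks, and over body and flanks of every protein-coding gene. All 15 libraries entered a quasi-binomial model in which each time point had its own mean. Its dispersion was moderated with limma 3.58.1 (squeezeVar), with the prior taken from windows of a pooled level of 5 to 95%, a choice made after seeing the data, and a floor of 1, and F tests were adjusted by Benjamini-Hochberg over all windows or genes. A window was called at an adjusted p below 0.05 and a difference of 20 points in summed levels, a gene at the adjusted p alone. The minimum of 20 points follows the 20% filter of the study, which was applied there to the largest difference over the time course and here to 48 h SL against 0 h, or to the largest difference from 0 h in the test over the time course. The study's caller was not used here. The study's methods describe the 3 libraries of a time point as biological replicates and the seed as coming from 1 batch of plants, so p-values measure the spread between libraries within that batch. Reads carry no molecular identifiers. Time points are called separated where the ranges of their libraries do not overlap. Repeats were found with blastn 2.17.0 at an e-value of at most 1e-05. Numpy 2.4.6 and scipy 1.17.1 were used.

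The windows named in each locus were those with the highest CG level at 0 h, the largest CG rise and the largest CG fall, and every window past a threshold; largest falls at a level below 1% are left out, and further windows were named after their values were seen. The members, the gene lists and the tests were chosen with earlier results of these data known. Alternatives were other window sizes and grids, other filters and minimum differences, limma on arcsine square-root transformed levels, other priors, a replicate block, other flanks, cytosines with 4 or more calls per library, and each library left out in turn. The sequence and position of 1 window are not reported here.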

Additional observations from a re-analysis of the deposited data

How the results depend on the processing

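The 0 CG windows past the threshold held under every alternative run, and so did the 0 CHG windows except that 1 was called with at least 1 call in every library. The 8 CHH windows became 26 with 100-bp and 2 with 1000-bp windows, 13 with a minimum of 10 points (14 over the time course) and 22 with no minimum (24 over the time course), and 6 to 8 with a library left out. Of the 8, 6 stayed past the threshold in all 19 alternatives that keep their windows. Counts of changed loci without a library were 0 to 1 in CG and 0 to 1 in CHG (MEA without 48 h SL replicate 1) and 2 to 4 in CHH, where limma called 5 (HDG8 and MPC added). Same-numbered libraries of different time points did not deviate together (CG correlations of −0.016 to 0.024, CHG −0.02 to 0.044, CHH −0.058 to 0.052, with 6, 5 and 7 of 15 libraries correlating best with their own number). No pairing by number was seen, but a correlation over all windows, most of them below 20% at 0 h, cannot exclude one. With the replicate block there were 0 CG and 0 CHG windows, 8 CHH windows and 3 CHH loci, as without it, and the MEA body lost its CHH call (adjusted p = 0.0613).

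Directions of small locus differences turned under several settings, and the cause was not tested. With cytosines of 4 or more calls per library, CG was 2.73 points at MEA, −0.627 at PHE1, −5 at HDG3, −0.881 at FIS2 and −0.942 at HDG9, and CHG −2.22 at PHE1, 0.0649 at HDG8 and −1.29 at MPC. With 1-kb flanks CG was −0.339 at HDG3, CHG 0.303 at HDG8 and 0.807 at HDG9, and CHH 0.00515 at PHE1. Calls gained in CHH were HDG3 with cytosines of 4 or more calls (−1.64 points, adjusted p = 0.0131, against −0.115 points and 0.648 otherwise) and MPC with 1-kb flanks (−2.68 points, adjusted p = 0.0461). Ranges with a library left out were −5.93 to 0.564 points for CG at MEA, −0.441 to 0.822 at HDG3, −0.574 to 4.18 at FIS2 and −1.71 to 1.52 at HDG8, −0.339 to 0.611 for CHG at PHE1 and −3.11 to 0.412 at HDG9, and −0.228 to 0.0185 for CHH at HDG3 and −0.161 to 0.465 at FIS2. For CG windows they were −2.71 to 4.60 at MEA (5018 bp), −5.50 to 1.28 at FIS2 (−1114 bp) and −4.01 to 2.26 at PHE1 (2886 bp). In the windows named by rule, the shallowest library held at least 21 calls in CG, 25 in CHG and 70 in CHH. These minima include the windows left out for a level below 1%, and CG and CHG windows with an unadjusted p below 0.05 (quasi-binomial test). They do not cover the other windows given in the text, such as CHH windows short of the threshold.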
